A study of Mus musculus with 6 samples.

Results

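The genes of the NF-kappaB module examined here were 10 named genes for REL subunits (Rela, Relb, Nfkb1, Nfkb2), IkB proteins (Nfkbia, Nfkbib, Nfkbiz), parts of the IkB kinase (Ikbkb, Ikbkg) and the ubiquitin-editing enzyme A20 (Tnfaip3). They were chosen by gene symbol, without use of their levels, as table rows whose name field held the symbol. Of the 10 genes, 8 had a row among the 31097 of the table, each with no other gene in it, and the RNA of Nfkb2 and Nfkbiz was not analysed here. RNA sequencing covered 3 WT libraries of 3T3-F442A, a mouse preadipocyte line that the labels call an adipocyte line, and 3 SWELL1 KO libraries of the same line in which SWELL1 had been targeted by CRISPR/Cas9. The protein, encoded by Lrrc8a, forms part of a chloride channel that opens when cells swell. Both groups were grown in RPMI medium with fetal bovine serum, and the question was how loss of SWELL1 alters gene expression in these cells. The labels name biological replicates and no clone, do not mention a differentiation step, and carry the mark D3 in the sample names of the KO libraries alone, so genotype, clone and whatever D3 denotes cannot be told apart. All p-values below rest on how far these libraries differ from one another within a group.

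NF-kappaB is a family of dimeric transcription factors built from REL subunits. In resting cells IkB proteins hold most dimers in the cytoplasm. When receptors for tumour necrosis factor, interleukin-1 or microbial products are engaged, the IkB kinase phosphorylates IkB, IkB is degraded, and the dimers enter the nucleus. Nfkbia and Tnfaip3 are themselves classic target genes, and their products end the response: IkB alpha recaptures the dimers, and A20 removes the ubiquitin chains that carry the signal to the kinase. In preadipocytes and fat cells the pathway is known for driving chemokine and cytokine genes.

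Promoters of the feedback genes Nfkbia and Tnfaip3 are shown because both held a match to the kappaB consensus, the DNA site that REL dimers bind, while their RNA moved in opposite directions in the KO libraries. Sequences are from RefSeq (GRCm38.p6), the 250 bases before the gene's start, written 5′ to 3′ along the gene, with consensus matches on either strand in capitals.
Nfkbia, chr12:55492648-55492897, minus strand: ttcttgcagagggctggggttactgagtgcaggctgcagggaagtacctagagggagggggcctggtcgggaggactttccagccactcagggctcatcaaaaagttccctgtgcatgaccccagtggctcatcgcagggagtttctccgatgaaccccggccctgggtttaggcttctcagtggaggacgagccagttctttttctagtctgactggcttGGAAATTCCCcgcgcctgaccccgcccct
Tnfaip3, chr10:19015411-19015660, minus strand: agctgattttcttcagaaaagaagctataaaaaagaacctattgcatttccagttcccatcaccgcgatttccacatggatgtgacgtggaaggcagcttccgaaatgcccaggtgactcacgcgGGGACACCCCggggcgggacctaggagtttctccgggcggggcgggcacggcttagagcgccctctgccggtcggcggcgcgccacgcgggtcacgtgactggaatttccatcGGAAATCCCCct
In Nfkbia the match, GGAAATTCCC, runs from 29 to 20 bases before the start. In Tnfaip3 the matches are GGGACACCCC, from 125 to 116 bases before the start, and GGAAATCCCC, from 12 to 3 bases before it. These distances count from the RefSeq start. In the GENCODE annotation, the source of the gene spans given below, Tnfaip3 reaches to 19015657, so both of its matches lie within that span. Searched on both strands in windows that also held the 50 bases after the start, the consensus was found in 8.46% of 32851 RefSeq promoters. A second Tnfaip3 start and the promoters of Rela, Nfkbib and Ikbkg held no consensus match in their windows. The windows of Nfkb2, whose RNA was not analysed here, also held matches. No promoter was at hand for Relb, Nfkb1, Ikbkb or Nfkbiz. A match describes the letters and is not a measured binding site.

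Estimated depth was about 17100000 to 20800000 fragments in WT libraries and 18300000 to 26000000 in KO libraries, read from the lowest values of long genes. Levels are in FPKM (fragments divided by transcript length and by sequencing depth). The row that holds Lrrc8a also holds Nup188 and Phyhd1, at 32.5 to 35.0 FPKM in WT and 27.3 to 28.8 in KO, and does not check the knockout. Of 9 adipocyte markers, 8 had a row: Fabp4 was 46.3-fold, Pparg 14.4-fold and Plin1 10.0-fold lower in KO, Adipoq was at 1.26 to 1.87 FPKM in WT and at 0 to 0.0443 in KO, and Lep was listed at 0 throughout. The 8 values summed to 276 to 358 in WT and 106 to 152 in KO, a sum that in KO was mostly Lpl (104 to 147 FPKM, 140 to 163 in WT, limma adjusted p = 0.0927). The 8 preadipocyte and fibroblast markers with a row summed to 6739 to 7581 in WT and 6160 to 6216 in KO. This sum joins genes that moved in opposite directions: all 8 passed the test described below, 3 higher and 5 lower in KO. They ran from Thy1 (289 ± 11.8 FPKM in WT, 144 ± 8.05 in KO) to Pdgfrb (29.2 ± 1.69 in WT, 41.5 ± 0.635 in KO). The 6 macrophage markers with a row summed to 1.30 to 1.64 in WT and 0.127 to 0.363 in KO, of which Lyz2 made 1.29 to 1.64 in WT and 0.0948 to 0.317 in KO, and Csf1r was listed at 0 throughout. The 7 lymphocyte markers summed to at most 0.0355 in WT and 0.548 in KO, the 6 endothelial markers to 0.477 to 0.659 in WT and 2.10 to 2.45 in KO, and the 6 epithelial markers to 0.0632 to 0.182 in WT and 1.25 to 1.53 in KO. In KO the endothelial sum was mostly Vwf (1.69 to 1.72 FPKM, 0.352 to 0.521 in WT). The epithelial sum in KO was mostly Krt8 (1.17 to 1.49 FPKM, 0 in WT), and Epcam was listed at 0 throughout. The part of such differences in the results was not tested. One numbered clone, AC166252.2, held 16.7% to 23.7% of the FPKM sum in KO libraries and at most 2.10% in WT. Scaling libraries to equal sums without it, a setting chosen after seeing the data, moved the median of all tested rows by 0.11 on the log2 scale, from -0.07 to 0.04. In whole-culture RNA, fewer cells with a transcript and less of it per cell cannot be told apart. Table rows averaging at least 0.5 FPKM were tested with limma on log2(FPKM + 0.5), and a gene was called where its Benjamini-Hochberg adjusted p was below 0.05.

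Relb and Rela fell in the KO libraries, and the level of Nfkb1 did not pass the test. Relb encodes the subunit that dimerises with the product of Nfkb2 in the non-canonical branch of the pathway (chromosome 7, 19606217 to 19629438, GRCm38). WT libraries 1 to 3 held 16.2, 14.2 and 14.8 FPKM, and KO libraries 1 to 3 held 10.4, 9.80 and 10.4. All 3 KO libraries were below all WT libraries. Relb fell from 15.1 ± 1.04 to 10.2 ± 0.358 FPKM (SD, n = 3), a log2 fold change of -0.54 (SE 0.06, limma adjusted p = 0.000585).

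Rela, the main activating subunit of the canonical branch (chromosome 19, 5637483 to 5648130), was measured at 26.5, 26.1 and 27.3 FPKM across WT and 22.9, 23.5 and 23.0 across KO libraries. The groups did not overlap, but the distance between them was small. Rela fell by 13.1% (26.6 ± 0.603 to 23.1 ± 0.348 FPKM, log2 fold change -0.20, SE 0.04, limma adjusted p = 0.00424). Its call was lost under quantile normalization (-0.06, limma adjusted p = 0.220) and with equal sums without AC166252.2 (-0.08, limma adjusted p = 0.149), with the value below 0 in both. Nfkb1 encodes a precursor that is processed to the DNA-binding partner of RelA (chromosome 3, 135584655 to 135691547). WT libraries held 24.2, 19.7 and 25.2 FPKM, and KO libraries 26.4, 23.7 and 22.5. These values overlapped, with the lowest and the second highest of the 6 both in WT. The log2 fold change was 0.07, with a 95% interval from -0.20 to 0.35 (limma adjusted p = 0.578).

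Among the inhibitors, Nfkbia rose and Nfkbib did not pass the test. Nfkbia encodes IkB alpha (chromosome 12, 55489410 to 55492647) and had the largest log2 fold change in size of the 8 genes. WT libraries held 11.4, 10.1 and 10.8 FPKM, and KO libraries 19.8, 20.8 and 17.8. The lowest KO library was well above the highest WT library. Nfkbia rose 1.81-fold, from 10.8 ± 0.629 to 19.5 ± 1.55 FPKM (log2 fold change 0.83, SE 0.08, limma adjusted p = 0.000214). Across all tested rows, 25.7% had a larger change in size than Nfkbia.

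Nfkbib encodes IkB beta, which is degraded and made again more slowly than IkB alpha (chromosome 7, 28758251 to 28767512). WT libraries held 9.55, 10.7 and 13.7 FPKM, and KO libraries 11.6, 12.9 and 17.3. Libraries within a group differed more for Nfkbib than for any other member, with a coefficient of variation of 19.0% in WT and 21.5% in KO. The log2 fold change of 0.28 had a 95% interval from -0.18 to 0.75 (limma adjusted p = 0.231), which includes changes as large as that of Relb. Nfkbib overlaps Sirt2 on the opposite strand, and Sirt2 itself was at 27.0 to 30.2 FPKM in WT and 32.8 to 38.0 in KO (log2 fold change 0.28, limma adjusted p = 0.0161). The sources used here do not say whether the deposited values kept strand, and the part of Sirt2 reads in Nfkbib was not tested.

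Of the kinase genes, Ikbkb rose and Ikbkg did not pass the test. Ikbkb encodes IKK beta, the catalytic subunit that phosphorylates IkB alpha (chromosome 8, 22659212 to 22706589). WT libraries held 6.15, 7.30 and 7.02 FPKM, and KO libraries 9.04, 9.15 and 8.99. The 3 KO libraries had a coefficient of variation of 0.888% and lay above every WT library. Ikbkb rose 1.33-fold, from 6.82 ± 0.599 to 9.06 ± 0.0805 FPKM (log2 fold change 0.39, SE 0.07, limma adjusted p = 0.00390).

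Ikbkg encodes NEMO, the scaffold that binds ubiquitin chains and holds the kinase together (chromosome X, 74393290 to 74453854). WT libraries held 11.3, 11.3 and 11.4 FPKM, and KO libraries 10.0, 10.8 and 10.9. All 3 KO values were below the WT values, and the distance was small. The log2 fold change of -0.10 had a 95% interval from -0.22 to 0.02 (limma adjusted p = 0.123), and it was 0.017 with equal sums without AC166252.2. Ikbkg overlaps G6pdx on the opposite strand, which rose in KO (34.2 to 38.6 FPKM in WT, 52.6 to 53.2 in KO, log2 fold change 0.52, limma adjusted p = 0.000295), and the part of its reads in Ikbkg was not tested.

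Tnfaip3, the A20 gene (chromosome 10, 19000910 to 19015657), was the lowest of the 8 genes in level and fell in KO. WT libraries held 2.60, 3.03 and 3.17 FPKM, and KO libraries 1.78, 1.65 and 1.5. Each KO library was below each WT library. Tnfaip3 fell by 44.1%, from 2.94 ± 0.298 to 1.64 ± 0.140 FPKM (log2 fold change -0.68, SE 0.10, limma adjusted p = 0.00150). The log2 value includes a pseudocount of 0.5 FPKM, which pulls it towards 0 at this level: it was -0.80 with a pseudocount of 0.1 and -0.57 with 1.

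**Figure D1:**
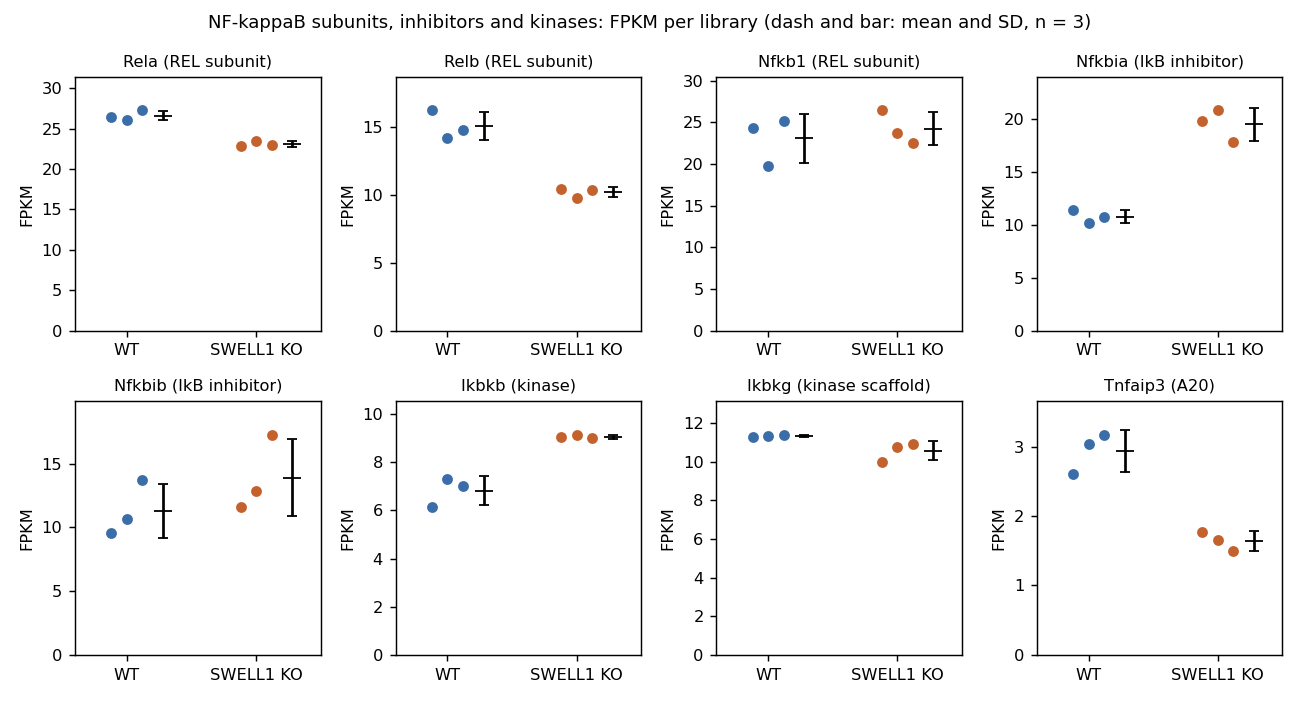
FPKM of the 8 measured genes in each library (y axis from 0 in every panel; blue points are WT and orange points KO libraries; dash and bar are mean and SD, n = 3). Nfkbia and Ikbkb sit higher in all KO libraries and Relb, Rela and Tnfaip3 lower, while the groups overlap for Nfkb1 and Nfkbib.

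Of the 8 genes, 2 were higher and 3 lower in KO, while 65.2% of the 10515 tested rows passed the same test, 28.5% higher and 36.7% lower. The groups did not overlap for 6 of the 8 genes and for 71.8% of tested rows. The share of members called is therefore near the background and is not a result about these genes as a set. All 8 passed the filter on low values. Their median log2 fold change was -0.01 beside -0.07 over all tested rows, and it changed sign under scaling (0.05 with median-ratio scaling, 0.09 with quantile normalization and 0.11 with equal sums without AC166252.2). None of the 8 changed by 1 log2 unit or more, which 17% of tested rows did while passing the test.

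**Figure D2:**
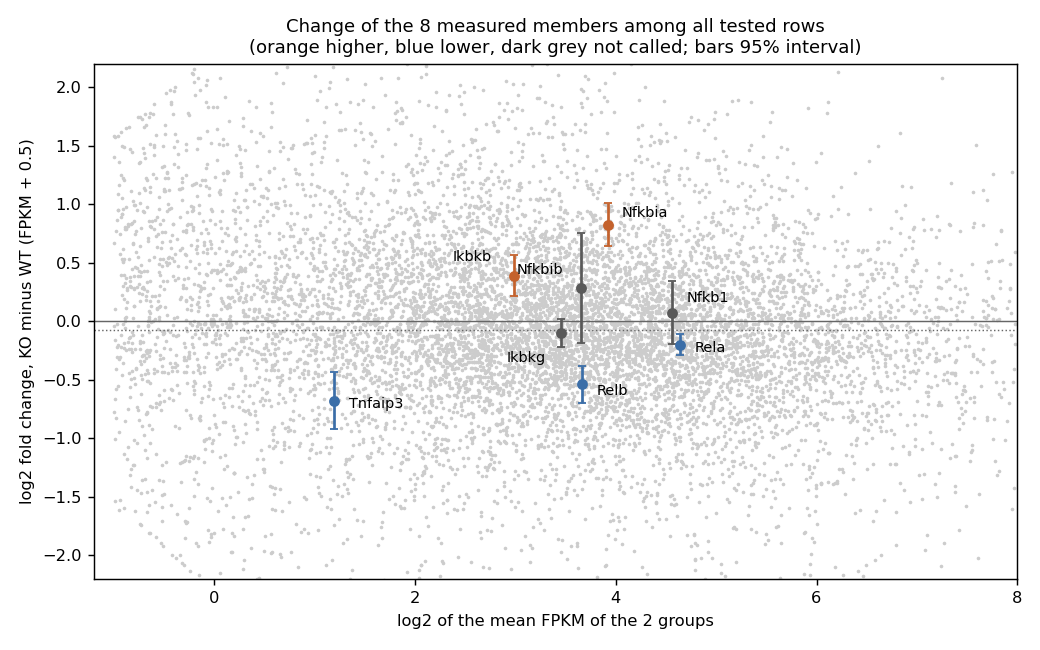
Log2 fold change (KO minus WT, FPKM + 0.5) against log2 mean FPKM for all tested rows (grey) and the 8 genes (bars are 95% intervals; orange higher, blue lower, dark grey not called); the dotted line is the median of all tested rows, and 632 rows lie outside the axes. The 8 genes lie inside the cloud of other genes, between -0.68 for Tnfaip3 and 0.83 for Nfkbia.

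The order of the genes by level also differed between the groups. FPKM is per transcript length, so levels of different genes can be set side by side, but only roughly. The part of reads from overlapping genes, given above for Nfkbib and Ikbkg, was not tested. In WT the order was Rela, Nfkb1, Relb, Ikbkg, Nfkbib, Nfkbia, Ikbkb and Tnfaip3. The WT libraries' ranges of Ikbkg, Nfkbib and Nfkbia all overlapped one another. In KO the order was Nfkb1, Rela, Nfkbia, Nfkbib, Ikbkg, Relb, Ikbkb and Tnfaip3, with overlapping ranges between Nfkb1 and Rela and between Ikbkg and Relb. Among the tested rows, the mean level of Nfkbia was at percentile 50.5 in WT and 68.9 in KO, and that of Relb at 60.1 and 50.1.

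Plain ratios within a library do not move with the scaling of that library, while log2 differences that include a pseudocount can. Nfkbia over Rela was 0.430, 0.388 and 0.395 in WT and 0.867, 0.885 and 0.773 in KO. The ratio was higher in 3 of 3 KO libraries, by 1.02 on the log2 scale (FPKM + 0.5). Tnfaip3 over Rela was 0.0983, 0.116 and 0.116 in WT and 0.0777, 0.0702 and 0.0652 in KO, lower in all 3 KO libraries. Its log2 difference was -0.48 with the pseudocount of 0.5 FPKM, -0.60 with 0.1 and -0.38 with 1. For each of the 4 ratios of this kind that were computed, the two-sided exact permutation test gave p = 0.1, the smallest that 3 against 3 libraries allow, so none can pass 0.05. The ratio of the feedback genes to each other, Nfkbia over Tnfaip3, a pair chosen after the values were seen, was 4.37, 3.34 and 3.39 in WT and 11.2, 12.6 and 11.9 in KO.

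The summed FPKM of Rela, Relb and Nfkb1 was 67.0, 60.1 and 67.3 in WT and 59.8, 57.1 and 55.9 in KO. The share of this sum from Relb was 23.3% ± 1.17 in WT and 17.7% ± 0.744 in KO, and that from Nfkb1 was 36.2%, 32.9% and 37.4% in WT and 44.2%, 41.6% and 40.3% in KO. The summed FPKM of Nfkbia, Nfkbib and a further IkB gene, Nfkbie, was 24.1, 24.1 and 27.8 in WT and 36.6, 38.2 and 38.9 in KO. The IkB sum over the REL sum was thus 0.391 ± 0.0278 in WT and 0.660 ± 0.0428 in KO, with no overlap between the groups. The sums and their ratio were not among the planned ratios. Nfkbia, whose rise is given above, made 42.7% ± 4.27 of the IkB sum in WT and 51.5% ± 4.99 in KO. Nfkbib, also in the sum, was not called. These sums leave out genes not analysed here, Nfkb2 and Rel among them, and describe RNA, not protein.

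**Figure D3:**
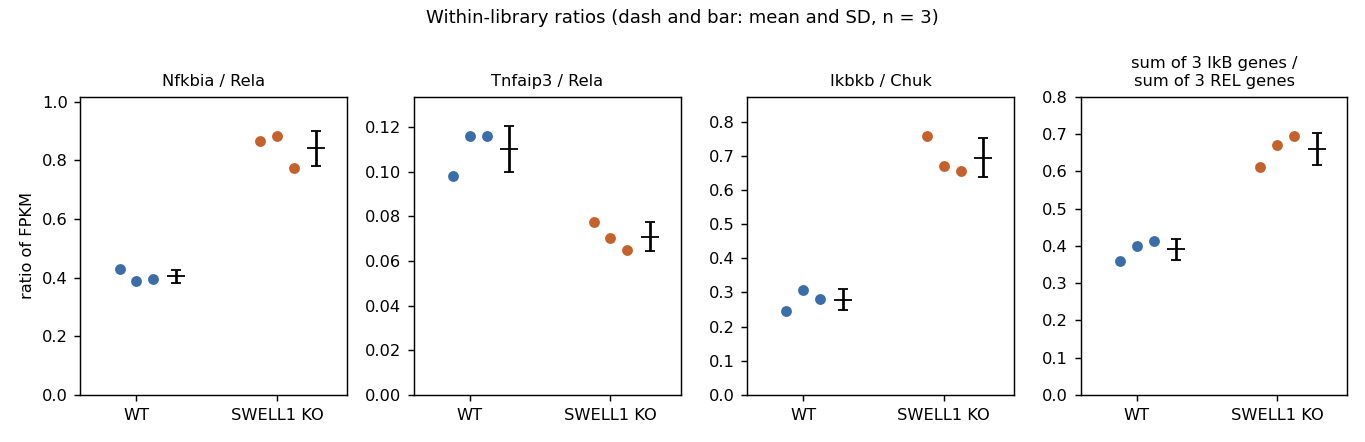
Ratios of FPKM within each library (y axis from 0; blue WT, orange KO; dash and bar are mean and SD, n = 3). Nfkbia over Rela goes from 0.404 ± 0.0226 to 0.842 ± 0.0599, Ikbkb over Chuk from 0.279 ± 0.0305 to 0.695 ± 0.0566 and the IkB sum over the REL sum from 0.391 to 0.660, while Tnfaip3 over Rela is lower in KO.

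The pathway around these genes was read from 6 lists with 113 named genes, of which 100 had a row, 10 were listed at 0 in every library and 72 were tested, 28 of them higher and 30 lower in KO. That is 80.6% called, beside 65.2% of all tested rows, 28.5% higher and 36.7% lower, which is the background for the counts of each list that follow. The lists were chosen with earlier results of these data known, and nothing particular to a list is read from its count. The median of each list kept its sign under every scaling tried.

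Among 10 further REL, IkB and IKK genes, 7 had a row, 5 were tested, 3 were higher and 1 was lower in KO (median log2 fold change 0.24). Chuk, the partner kinase IKK alpha, fell from 24.9, 23.7 and 24.9 FPKM to 11.9, 13.7 and 13.7 (log2 fold change -0.88, SE 0.07, limma adjusted p = 9.97e-05). The kinases of the complex thus differed in direction: Ikbkb over Chuk was 0.247, 0.308 and 0.282 in WT and 0.759, 0.670 and 0.654 in KO (two-sided exact permutation p = 0.1, a pair chosen after the values were seen). Ikbke, an IKK-related kinase better known for interferon signalling, rose from 2.49 ± 0.0794 to 6.28 ± 0.606 FPKM (limma adjusted p = 7.56e-05). Nfkbie, which encodes IkB epsilon, rose from 3.16, 3.27 and 3.32 to 5.20, 4.51 and 3.84 FPKM (limma adjusted p = 0.0170), a call lost without WT replicate 1 (limma adjusted p = 0.0525) or KO replicate 2 (limma adjusted p = 0.0502). Nkiras2, a small GTPase-like protein that binds IkB, was the other higher gene (22.8 ± 1.00 and 27.0 ± 2.78 FPKM, limma adjusted p = 0.0465) and lost its call in 5 of the 6 fits that left out 1 library. Without WT replicate 1 or KO replicate 2 the count of higher genes was 1 in place of 3.

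Most genes for the ligands that start the pathway lay below the filter on low values. Of 12 ligand genes, 10 had a row and 2 were tested, both higher in KO (median log2 fold change 1.30). Tnf was listed at 0 in all WT libraries and at 0.0338, 0 and 0.0402 FPKM in KO, and Il1b was listed at 0 in all 6. Il33, an alarmin of the interleukin-1 family, rose from 22.8, 24.9 and 22.7 to 40.5, 45.7 and 40.2 FPKM (log2 fold change 0.83, limma adjusted p = 0.000135). Il18, of the same family, rose 3.91-fold from 2.29 ± 0.521 to 8.95 ± 0.859 FPKM (limma adjusted p = 0.000173).

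Of 25 canonical receptors and adaptors, 23 had a row and 18 were tested, with 7 higher, 4 lower and 7 not called (median log2 fold change 0.16). The toll-like receptor genes Tlr2 and Tlr4, sensors of bacterial products, rose. Tlr2 went from 4.40, 4.66 and 4.17 FPKM to 13.7, 14.3 and 15.3 (limma adjusted p = 1.14e-05), and Tlr4 from 6.31, 6.55 and 6.02 to 12.1, 11.7 and 13.6 (limma adjusted p = 9.65e-05). Myd88, the adaptor that these receptors and the interleukin-1 receptor share, fell from 28.1, 26.0 and 27.3 to 11.9, 12.2 and 12.1 FPKM (log2 fold change -1.14, limma adjusted p = 9.43e-06). Tlr2 and Tlr4 thus differed in direction from Myd88, while Irak1, a kinase downstream of Myd88, rose from 13.0 ± 1.11 to 22.8 ± 0.698 FPKM (limma adjusted p = 0.000177). The row of Irak1 also names Mir5132 and Mir718. Il17ra, a receptor for interleukin-17, fell from 15.9 ± 1.37 to 6.44 ± 0.415 FPKM (limma adjusted p = 6.15e-05). Il1r1, the signalling receptor for interleukin-1, fell as Myd88 did, from 46.5 ± 1.69 to 34.4 ± 1.19 FPKM (limma adjusted p = 0.000388). The remaining lower gene was the kinase gene Map3k3, at 20.2 ± 1.49 FPKM in WT and 15.8 ± 0.467 in KO (limma adjusted p = 0.00385). Traf5, a signal adaptor of the tumour necrosis factor receptor family, rose 4.59-fold from 3.01 ± 0.790 to 13.8 ± 3.39 FPKM (limma adjusted p = 0.000542). The other higher genes were Tnfrsf1b, Map3k7 and Tab3. Tnfrsf1b was at 5.65 ± 0.309 FPKM in WT and 8.57 ± 0.263 in KO (limma adjusted p = 0.000363). In WT and KO, Map3k7 was at 8.35 ± 0.166 and 13.2 ± 0.289 FPKM (limma adjusted p = 6.56e-05). Tab3 was at 2.10 ± 0.0978 and 2.93 ± 0.0537 (limma adjusted p = 0.00259). Ripk1, Irak4 and Tirap were listed at 0 in all 6 libraries, and a 0 in this table need not be a true absence: 259 of the 8117 table rows that reached 5 FPKM had both zeros and higher values within a group.

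In the non-canonical list, 6 of 10 genes were tested, 4 were lower and 1 was higher (median log2 fold change -0.42). Map3k14, which encodes the kinase NIK that starts this branch, rose from 4.99, 4.94 and 4.75 FPKM to 10.2, 11.6 and 8.76 (limma adjusted p = 0.000375). Its row also names 1700028N14Rik, and the row of Birc2, given below, also names C330006D17Rik. The ubiquitin ligase complex that keeps NIK protein low is built from TRAF2, TRAF3 and the cIAP proteins. Traf2 fell from 18.2 ± 2.47 to 10.6 ± 0.339 FPKM (limma adjusted p = 0.000976). Birc2, which encodes a cIAP, fell from 18.8 ± 0.831 to 12.0 ± 0.287 FPKM (limma adjusted p = 0.000109). Birc3, which encodes another cIAP, was not called, and its groups overlapped (7.42 ± 0.541 FPKM in WT, 6.73 ± 0.581 in KO, limma adjusted p = 0.213). Traf3 was at 3.77 ± 0.114 FPKM in WT and 3.21 ± 0.216 in KO (limma adjusted p = 0.0415), a call lost in 5 of the 6 fits that left out 1 library. The receptor gene Ltbr fell from 36.1, 35.2 and 35.2 to 20.9, 20.8 and 22.5 FPKM (limma adjusted p = 4.61e-05). With Relb, whose product this branch carries to the nucleus, both the receptor and the effector subunit were lower and the kinase gene higher.

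The list of genes for ubiquitin ligases, editors and brakes, not all of them brakes, had 20 named members. Of them 18 had a row, 2 on rows shared with another coding gene, and 14 were tested. Of these, 5 were higher and 7 lower (median log2 fold change -0.30). Otulin, which cuts linear ubiquitin chains and has its row under the older symbol Fam105b, rose from 9.78, 7.17 and 7.36 to 21.7, 18.8 and 23.4 FPKM (log2 fold change 1.35, limma adjusted p = 0.000360). Cyld, which cuts the same and other chains, fell from 12.0, 10.0 and 18.3 to 6.18, 6.09 and 6.36 FPKM (log2 fold change -1.01, limma adjusted p = 0.00649). Zc3h12a, an RNase that degrades inflammatory messenger RNAs, fell from 6.45 ± 0.362 to 2.85 ± 0.779 FPKM (limma adjusted p = 0.00192). Sigirr, a decoy-type receptor of the interleukin-1 family, was near 0 in WT (0.0303, 0 and 0 FPKM) and measured in every KO library (1.76, 1.65 and 1.72 FPKM), with limma adjusted p = 2.66e-05. The other higher genes were Socs1 (2.83 ± 0.272 and 5.41 ± 0.204 FPKM in WT and KO), Sharpin (13.4 ± 0.313 and 17.1 ± 0.576) and the A20-binding Tnip1 (13.6 ± 0.275 and 16.7 ± 0.858), with limma adjusted p from 0.000262 to 0.00370. The other lower genes were Tnip2, a relative of Tnip1 (9.40 ± 0.966 and 6.39 ± 0.630 FPKM in WT and KO), the A20 partners Itch (29.3 ± 1.24 and 15.2 ± 0.299) and Rnf11 (105 ± 1.35 and 68.2 ± 2.41), the linear ubiquitin ligase subunit Rbck1 (58.1 ± 3.98 and 33.7 ± 1.22) and the adaptor Tollip (18.5 ± 0.649 and 11.9 ± 0.113), with limma adjusted p from 2.26e-05 to 0.00492. Tax1bp1 did not pass the test (75.0 ± 1.99 FPKM in WT, 71.3 ± 0.764 in KO, limma adjusted p = 0.105). Neither did N4bp1 (12.5 ± 0.477 FPKM in WT, 13.2 ± 0.623 in KO, limma adjusted p = 0.273). Tnfaip3, its partners Itch and Rnf11, and also Cyld and Tnip2 were thus lower, Tnip1 and Otulin higher, and Tax1bp1 not called.

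Known NF-kappaB target genes moved in both directions. Of 36 named, 33 had a row and 27 were tested, with 10 higher, 14 lower and 3 not called (median log2 fold change -0.49). The chemokine genes Ccl2 and Cxcl10 and the protease gene Mmp9 had the largest increases on the log2(FPKM + 0.5) scale. Ccl2 was measured at 3.44, 2.95 and 2.07 FPKM across WT and 94.5, 118 and 98.6 across KO libraries (log2 fold change 4.99, limma adjusted p = 7.53e-06). Cxcl10 rose 4.23-fold from 1.77 ± 0.447 to 7.48 ± 0.651 FPKM, and Mmp9 3.65-fold from 6.23 ± 0.557 to 22.7 ± 2.98. By plain ratio of FPKM, genes at lower levels lay above these last: Traf1, an adaptor gene, was 11.3-fold higher (0.124 ± 0.0671 and 1.40 ± 0.323 FPKM) and Mmp13, a collagenase gene, 7.38-fold (0.292 ± 0.00589 and 2.15 ± 0.268). The pentraxin gene Ptx3, the nitric oxide synthase gene Nos2 and the cytokine gene Il6 had the largest decreases on the same scale. Ptx3 was measured at 410, 404 and 398 FPKM across WT and 10.9, 12.3 and 15.3 across KO libraries (log2 fold change -4.94, limma adjusted p = 2.96e-06). Il6 went from 13.3, 13.8 and 11.9 FPKM to 0.434, 0.241 and 0.567 (limma adjusted p = 9.45e-06), and Nos2 from 17.0, 16.3 and 16.2 to 0.296, 0.164 and 0.167 (limma adjusted p = 1.75e-06).

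Promoters were at hand for 16 of the 24 called targets. The kappaB consensus was found in 3 of 6 higher targets (Csf1, Cxcl10 and Irf1) and in 5 of 10 lower targets (Bcl2l1, Ier3, Il6, Ptx3 and Sod2), against 9.55% of all 27025 RefSeq genes with a promoter. The share was 50% in each direction. The targets were listed because they are known NF-kappaB targets, so the distance from all genes describes the list and is no result of these libraries.

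**Figure D4:**
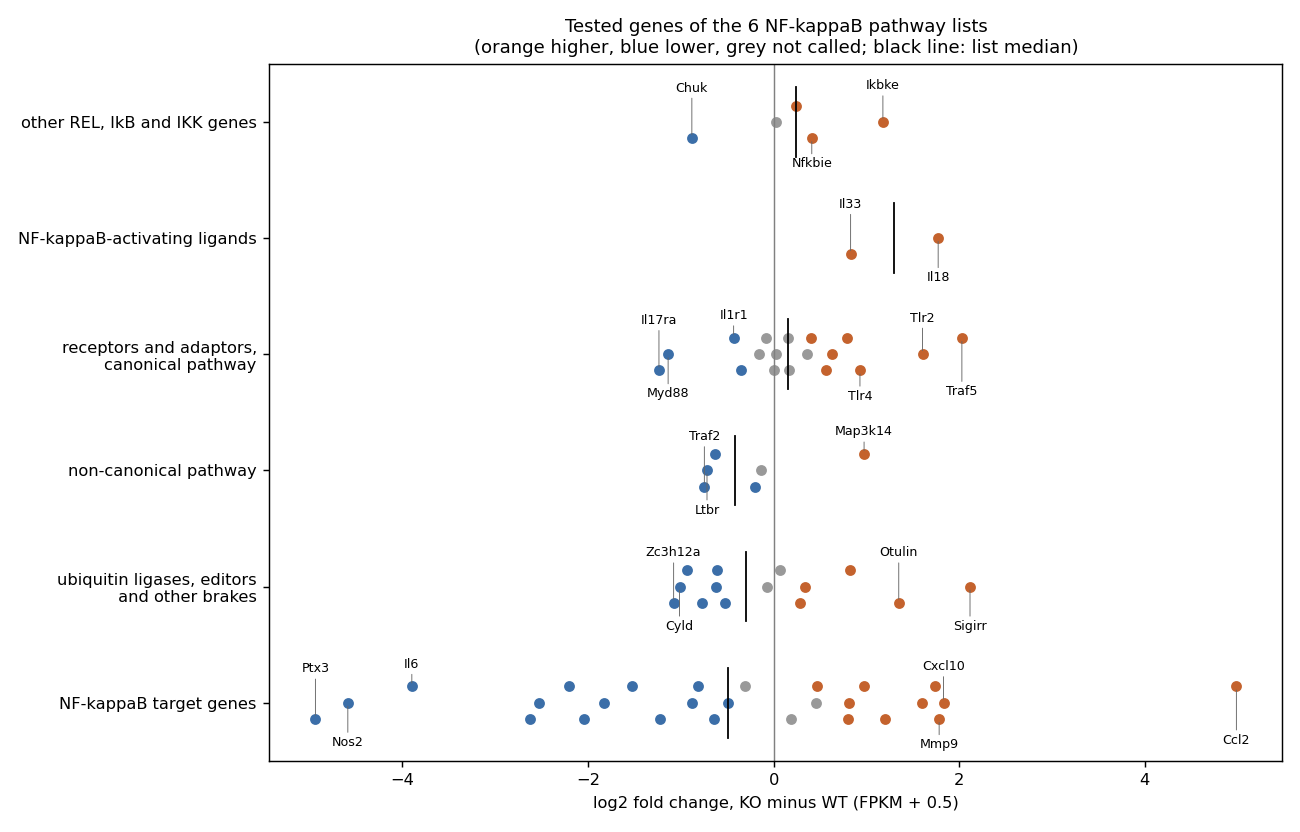
Log2 fold change (KO minus WT, FPKM + 0.5) of each tested gene in the 6 lists of pathway genes (orange higher, blue lower, grey not called; black line is the list median). Both tested ligands are higher, and target genes spread from -4.94 for Ptx3 to 4.99 for Ccl2. Receptors, kinases, and the list of ubiquitin ligases, editors and brakes hold genes on both sides of 0.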

How the data were processed

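Expression was measured by RNA sequencing in 3 WT and 3 SWELL1 KO libraries, grouped by their titles. The deposited values are taken as FPKM made by the authors with Cufflinks 2.02 after TopHat alignment to GRCm38, per the submitters' processing notes; no header names the unit. The sources used here give no annotation release, settings or strand handling. Values were used as deposited. Depth was estimated from the lowest values of 1301 genes with 1 transcript of at least 2500 bases in GENCODE.

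Table rows averaging 0.5 FPKM or more were tested on log2(FPKM + 0.5) with limma 3.58.1 (R 4.3.3), with a mean-variance trend, two-sided, without a replicate block, with Benjamini-Hochberg adjustment over all 10515 tested rows and a threshold of 0.05 ("called", "passed"). The fit was tested on simulated data. Ratios used an exact permutation test. Python 3.11.15, pandas 2.3.3 and matplotlib 3.10.9 were used. The members and lists were chosen with earlier results of these data known, though the rule for the members did not use their values. Besides the members, genes were named by rule: the 3 largest called increases and decreases of the receptor and target lists and the 2 largest of the others, with groups that do not overlap, a group mean of at least 1 FPKM and no other coding gene in the row. Tnf, Il1b, Ripk1, Irak4, Tirap, Nkiras2, Map3k3, Tnfrsf1b, Map3k7, Tab3, Traf3, Birc2, Birc3, Socs1, Sharpin, Tnip1, Tnip2, Itch, Rnf11, Rbck1, Tollip, Tax1bp1, N4bp1, Irak1, Traf1 and Mmp13 were named after their values were seen, as were genes listed by promoter match. Alternatives covered pseudocount, filter, scaling, variance model, replicate block and each library left out.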

Additional observations from a re-analysis of the deposited data

How the results depend on the processing

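Every count over all tested rows, over the 8 members and over the 6 pathway lists together stayed within 1.5 times its value under all alternatives run, among them the fits that left out 1 library. Relb, Nfkbia, Ikbkb and Tnfaip3 kept their direction and call in each: log2 fold changes ranged from -0.58 to -0.42 for Relb, 0.78 to 0.94 for Nfkbia, 0.32 to 0.50 for Ikbkb and -0.80 to -0.57 for Tnfaip3. Rela kept its direction and lost its call under the 2 settings given with it, leaving 2 lower members in place of 3. Of the members not called, Nfkb1 ranged from -0.032 without WT replicate 2 (limma adjusted p = 0.751) to 0.14 without WT replicate 3 among the fits that left out 1 library and reached 0.20 under quantile normalization (limma adjusted p = 0.159), and Ikbkg was at 0.017 with equal sums without AC166252.2 (limma adjusted p = 0.778). With the replicate number as a replicate block, Nfkbib passed (log2 fold change 0.28, limma adjusted p = 0.0102), and 3 members were higher in place of 2. Same-numbered libraries did not deviate together over the tested rows (correlations 0.00342, 0.0116 and -0.0932). The labels state no shared source for a number, and these correlations cannot settle whether the numbers pair the samples. Under the block 2846 rows were higher and 3688 lower, against 2998 and 3862. Of the genes named after their values were seen, Nkiras2 and Traf3 also lost their calls under the block (limma adjusted p = 0.0968 and 0.103) and with no filter on low values (0.0645 and 0.0901), Nkiras2 without the mean-variance trend (0.0568), and Traf3 with median-ratio scaling (0.120) and equal sums without AC166252.2 (0.248). Under the block and under both of these scalings the non-canonical list had 3 lower genes in place of 4. Precision is limited by 3 libraries a group and, under about 1 FPKM, by few fragments.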
